A study of Rattus norvegicus with 31 samples.

Results

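The NMDA receptor subunit genes were followed by name on Affymetrix rat expression arrays of microdissected hippocampal CA3. A probeset, the set of short probes that the array summarises into 1 signal, was taken where the array annotation assigned it to Grin1, Grin2a, Grin2b, Grin2c, Grin2d or Grin3a alone. That rule gave 7 of the 16204 probesets in the table, namely 2 each for Grin1, Grin2a and Grin2b and 1 for Grin2c. Grin2d and Grin3a had 0 single-gene probesets in the table and were not analysed here, so 4 of the 6 symbols were measured.

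NMDA receptors are glutamate-gated channels built from obligatory GluN1 subunits, which bind the co-agonist glycine or D-serine, together with GluN2 subunits, which bind glutamate. They open only when glutamate is bound and the membrane is depolarised enough to relieve magnesium block, and the calcium they admit triggers long-term changes in synaptic strength. In CA3 they serve chiefly the recurrent and perforant path synapses, while GluN2A and GluN2B set how fast the channel closes and which signalling proteins gather at it.

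All rats were male Long-Evans rats aged 24 to 26 months with no transgene or drug. Aged unimpaired (AU) rats performed within the range of young adults in an earlier hidden-platform water maze, and aged impaired (AI) rats performed outside it. In a later session of 8 trials to a visible platform, the spatial task (S) kept the platform in place among prominent cues, while the non-spatial task (NS) moved it and removed the cues. After a probe trial 1 hour later, CA3 of both hemispheres was pooled within each rat, giving arrays of 8 AU-S, 8 AU-NS, 8 AI-S and 7 AI-NS rats, with 1 AI-NS array left out by the authors. AU-act and AI-act denote the 16 AU and 15 AI rats of both tasks. The rats came from 6 behavioural runs, which the sample labels do not identify, and no caged rats without training were part of these arrays.

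Values are log2 signals after gcRMA, a background correction, quantile normalisation and summary of each probeset. Because every probeset binds with its own efficiency, transcript levels are compared between rats only. A probeset's rank among all probesets, and brighter or dimmer, describe its signal and not how much transcript there was. All probesets means the 16204 in the table, which are only part of those on the array. Their smallest mean was 5.00, so ranks and shares leave out dimmer probesets. Array medians lay between 8.97 and 9.14, and each array correlated with the others at a mean r of 0.981 to 0.989. Of the 5 CA3 pyramidal cell markers listed, Grik4 and Bok were measured, with mean log2 signals of 10.21 and 10.45, while Npy2r, Cdh24 and Iyd were not analysed here. None of 11 cell type marker sums differed between AU and AI after adjustment over the lists (permutation tests, smallest adjusted p = 0.128, for oligodendrocyte and CA2 pyramidal cell markers). Each sum leans on its brightest markers. Of the interneuron markers, only Gad2 differed after adjustment over all probesets, higher in AU by 0.48 (adjusted p = 0.0391 by limma). Gad1, Slc32a1 and Pvalb were higher and Sst, Npy and Vip lower, without passing. The summed signal of 2 dentate granule cell markers ranged from 1524 to 2276 in AU arrays and from 1481 to 3557 in AI arrays.

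RNA quality moved with phenotype. For beta-actin and Gapdh the array has control probesets near either end of the transcript, and the log2 signal of the 3′ end minus that of the 5′ end grows as RNA is degraded or labelled less completely. It averaged 1.45 ± 0.10 in AU-act (SD, n = 16) and 1.59 ± 0.13 in AI-act (SD, n = 15), a difference of -0.14 (two-sided permutation test, p = 0.000630). Within tasks the AU minus AI difference was -0.11 after spatial training (exact permutation test, p = 0.0502) and -0.18 after non-spatial training (exact permutation test, p = 0.00435). The same measure on hexokinase gave -0.38 in all rats (permutation test, p = 4.0e-05). Its values are given beside the subunit results they move with.

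The first question was whether transcripts of the receptor subunits differed between AU-act and AI-act. By limma with Benjamini-Hochberg adjustment over all probesets, 0 of the 7 subunit probesets passed an adjusted p of 0.05, while 5.51% of all probesets did, 5% being higher and 0.512% lower in AU. A single subunit probeset, for Grin2b, had an unadjusted p under 0.05, as did 3166 of all probesets (19.5%). Significance analysis of microarrays (SAM), the method the study used, was run anew here on the deposited values, so its counts are not the study's. It called 0 of the 7, against 10% of all probesets. The median AU minus AI difference of the 7 probesets was 0.10, against 0.01 over all probesets, and 6 of the 7 differences were positive, against 53.3% of all. Values of AU and AI rats overlapped for each of the 7, as seen in the plot of values by group.

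**Figure D1:**
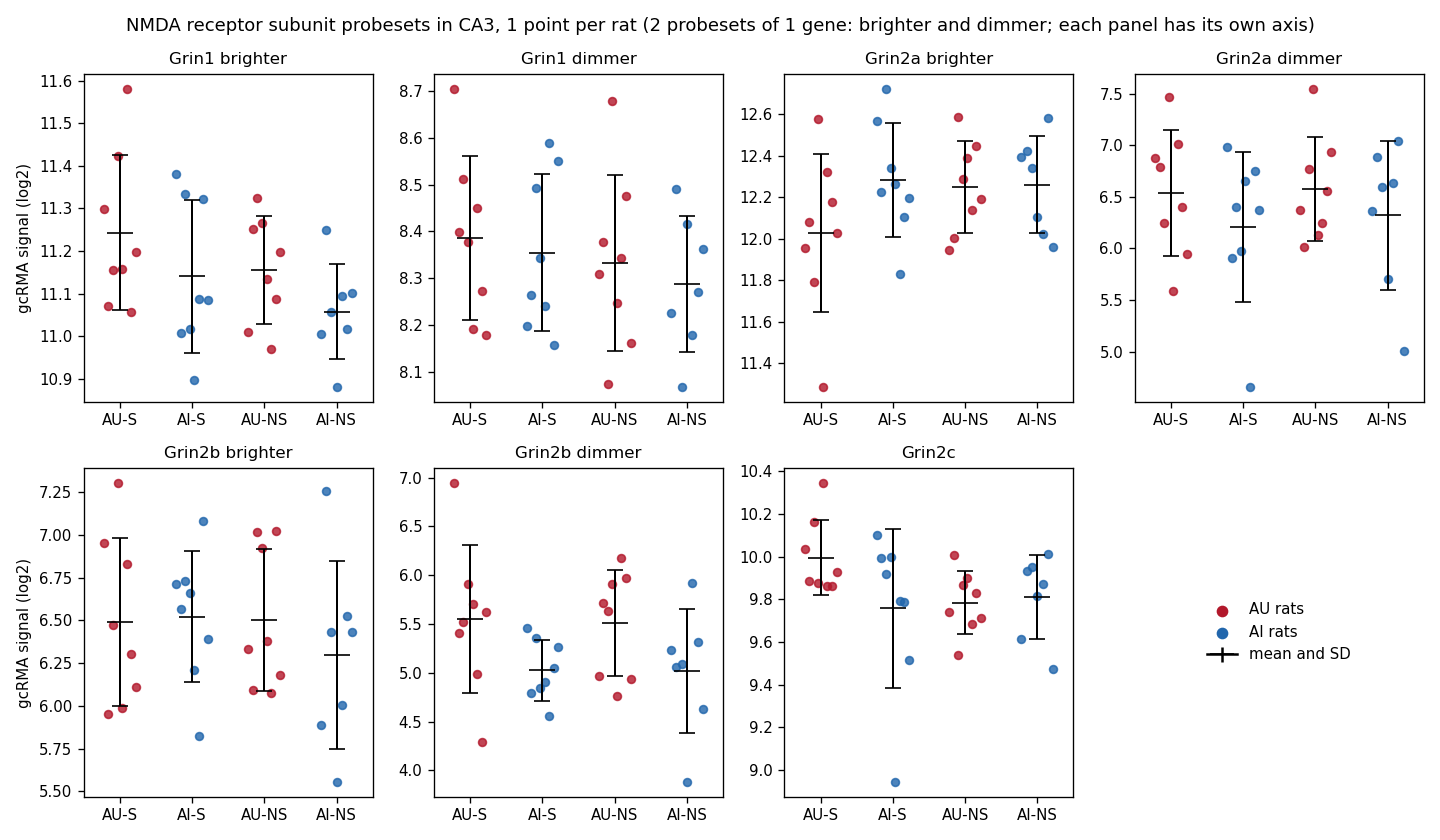
Log2 gcRMA signal of each NMDA receptor subunit probeset by group (AU left of AI in each task), 1 point per rat, with the mean and SD of each group. The groups overlap in every panel, and the dimmer Grin2b probeset shows the largest AU minus AI difference, 0.50.

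Grin1 encodes GluN1, the subunit without which no NMDA receptor assembles. Its brighter probeset, 1368572_a_at, recognises several transcripts of the gene. Its log2 signal had a lowest, median and highest value of 11.06, 11.18 and 11.58 in AU-S rats and 10.90, 11.09 and 11.38 in AI-S rats. After non-spatial training the corresponding values were 10.97, 11.17 and 11.33 in AU-NS rats and 10.88, 11.06 and 11.25 in AI-NS rats. Both AU groups had the higher means, but all 4 ranges overlapped. The AU-act minus AI-act difference was 0.10 (SE 0.06, 95% interval -0.02 to 0.21, adjusted p = 0.353 by limma).

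The dimmer Grin1 probeset, 1389900_at, averaged 8.36 ± 0.18 in AU-act (SD, n = 16) and 8.32 ± 0.16 in AI-act (SD, n = 15). The difference was 0.04 (95% interval -0.09 to 0.16, adjusted p = 0.805 by limma). Across the 31 arrays the pair of Grin1 probesets hardly moved together (r = 0.14, Spearman rank coefficient = 0.11, permutation p = 0.448), and both had a small spread, with SDs of 0.16 and 0.17 over all arrays.

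Grin2a encodes GluN2A, the GluN2 subunit of mature forebrain synapses that gives fast-closing channels. Its probesets pointed in opposite directions. The brighter one, 1380861_at, which the annotation ties to an expressed sequence tag, had a lowest, median and highest log2 signal of 11.29, 12.05 and 12.58 in AU-S rats and 11.83, 12.25 and 12.72 in AI-S rats. In AU-NS rats it read 11.95, 12.24 and 12.59, and in AI-NS rats 11.96, 12.34 and 12.58. AU-S was the lowest group and AU-S replicate 5, at 11.29, the lowest rat, while the means of the other groups ran from 12.25 to 12.28. The AU-act minus AI-act difference was -0.13 (SE 0.10, 95% interval -0.34 to 0.07, adjusted p = 0.498 by limma), or -0.076 without AU-S replicate 5.

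The dimmer Grin2a probeset, 1368985_at, is tied to the reference mRNA of the gene. Its lowest, median and highest log2 signals were 5.59, 6.60 and 7.46 in AU-S rats and 4.66, 6.39 and 6.98 in AI-S rats. After non-spatial training they were 6.01, 6.47 and 7.55 in AU-NS rats and 5.00, 6.60 and 7.04 in AI-NS rats. The lowest values belonged to AI-S replicate 6 and AI-NS replicate 8, whose control differences of 1.68 and 1.92 were among the largest of all arrays. AU-act exceeded AI-act by 0.29 (SE 0.21, 95% interval -0.14 to 0.73, adjusted p = 0.480 by limma), or by 0.18 without AI-S replicate 6.

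Grin2b encodes GluN2B, the slower-closing subunit that is prominent early in development and binds calcium-calmodulin kinase II. The brighter of its probesets, 1391708_at, averaged 6.50 ± 0.44 in AU-act (SD, n = 16) and 6.42 ± 0.46 in AI-act (SD, n = 15). Its difference was 0.08 (SE 0.16, 95% interval -0.24 to 0.39, adjusted p = 0.840 by limma), and it ran from 0.016 without AI-NS replicate 5 to 0.14 without AI-NS replicate 3. Even the brighter probeset was dim, with a mean above only 12.6% of all probesets.

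The other Grin2b probeset, 1369745_at, showed the largest difference among the 7. Its lowest, median and highest log2 signals were 4.29, 5.57 and 6.94 in AU-S rats and 4.55, 4.98 and 5.46 in AI-S rats. After non-spatial training they were 4.76, 5.67 and 6.17 in AU-NS rats and 3.88, 5.09 and 5.92 in AI-NS rats. AU medians were higher in both tasks and 14 of 15 AI rats lay below the AU mean, yet the lowest AU-S rat was below every AI-S rat. AU-act averaged 5.53 ± 0.64 and AI-act 5.02 ± 0.47 (SD, n = 16 and 15), a difference of 0.50 (SE 0.19, 95% interval 0.11 to 0.90), or 1.42-fold. It did not pass adjustment over all probesets (adjusted p = 0.124 by limma), and 10.8% of all probesets had a smaller p. SAM gave a q-value of 0.0523, and without AU-S replicate 7 limma gave a difference of 0.59 with an adjusted p of 0.0497. The signal was near the lower end of the table, with a mean above only 2.35% of its probesets. On 1 array it was below the log2 limit of 4 used by the authors.

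Grin2c encodes GluN2C, best known from cerebellar granule cells and, in the forebrain, from astrocytes and some interneurons. Its only probeset, 1368306_at, had a lowest, median and highest log2 signal of 9.86, 9.91 and 10.34 in AU-S rats and 8.94, 9.86 and 10.10 in AI-S rats. In AU-NS rats it read 9.54, 9.78 and 10.01, and in AI-NS rats 9.47, 9.87 and 10.01. AU-S rats were the highest group and 1 AI-S rat, replicate 5, was below all other rats. The AU-act minus AI-act difference was 0.11 (SE 0.09, 95% interval -0.07 to 0.28, adjusted p = 0.528 by limma), or 0.05 without that rat. The astrocyte marker sum averaged 67371 in AU and 66874 in AI arrays (permutation test, adjusted p = 0.723). In such bulk tissue, fewer cells of a type and less RNA per cell cannot be told apart.

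**Figure D2:**
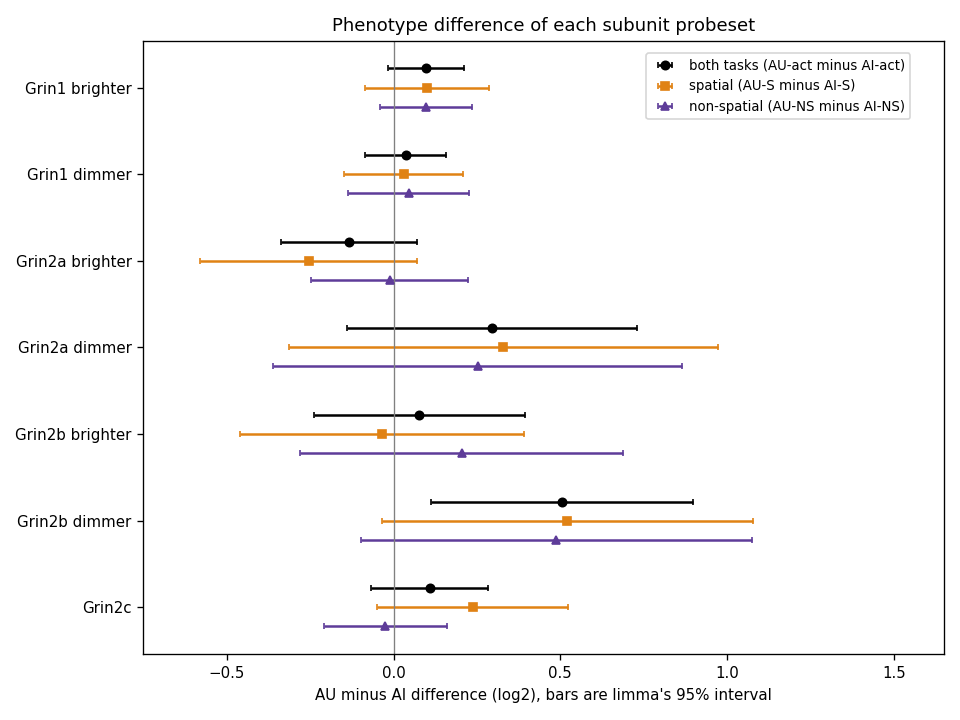
AU minus AI difference in log2 signal of each subunit probeset with limma's 95% interval, for both tasks together and for each task alone. Every interval includes 0 except that of the dimmer Grin2b probeset over both tasks, 0.11 to 0.90, whose adjusted p was 0.124.

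The next question was whether the phenotypes differed within a task. Comparing AU-S with AI-S at an adjusted p of 0.1, limma called 0 of the 7 subunit probesets, against 0.413% of all probesets, and SAM called 0 of the 7, against 3.48% of all. An unadjusted p under 0.05 was reached by 0 of the 7 and by 12.3% of all. The limma background of 67 probesets was not steady, running from 5 without AI-S replicate 6 or AU-S replicate 3 to 448 without AI-S replicate 7. The differences ran from -0.25 for the brighter Grin2a probeset (SE 0.15, adjusted p = 0.53, and -0.15 without AU-S replicate 5) to 0.52 for the dimmer Grin2b probeset (SE 0.26, adjusted p = 0.442, and 0.32 without AU-S replicate 1). Grin2c differed by 0.24 (SE 0.14, adjusted p = 0.505), with all 8 AU-S rats above the AI-S mean, and by 0.12 without AI-S replicate 5.

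Comparing AU-NS with AI-NS, limma again called 0 of the 7, and the background was 0% of all probesets, although 11.5% had an unadjusted p under 0.05 and SAM called 2.99% at its q-value of 0.1. Without AI-NS replicate 3 the limma count over all probesets was 208, and with all 4 groups in the fit it was 163. None of the 7 had an unadjusted p under 0.05, and SAM called none of them. The dimmer Grin2b probeset differed by 0.49 (SE 0.28, adjusted p = 0.524, and 0.30 without AI-NS replicate 5), whereas the brighter Grin2a probeset and Grin2c differed by -0.01 and -0.02. A direct test of whether the phenotype difference changed with task called 0 of the 7 and 0% of all probesets (limma interaction). An unadjusted p under 0.05 was reached there by 0 members and by 396 probesets (2.44% of all). The largest interaction among subunits was 0.26 for Grin2c (SE 0.17, 95% interval -0.08 to 0.61, adjusted p = 1.00), or 0.15 without AI-S replicate 5.

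Spatial and non-spatial training were also compared within each phenotype. In AU rats Grin2c averaged 9.99 ± 0.18 after spatial and 9.78 ± 0.15 after non-spatial training (SD, n = 8 each), a difference of 0.21 (SE 0.08, 95% interval 0.04 to 0.38). It was the only subunit probeset whose unadjusted p was under 0.05, and its adjusted p of 0.605 by limma did not pass. Called probesets were 0 of the 7 and 0% of all in AU rats, where 1316 probesets (8.12% of all) had an unadjusted p under 0.05. SAM called 1 there (0.00617%), which was no subunit. In AI rats the S minus NS differences lay between -0.11 for the dimmer Grin2a probeset and 0.22 for the brighter Grin2b probeset. There limma and SAM called 0 of the 7 and 0% of all, with 0 members and 662 probesets (4.09% of all) having an unadjusted p under 0.05.

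For each probeset the order of the 4 groups rested on means that were close together. The gap between the highest and lowest group mean was 0.18 for the brighter Grin1 probeset and 0.10 for the dimmer Grin1 probeset, against a pooled SD within groups of 0.15 and 0.17. For Grin2a it was 0.25 at the brighter and 0.36 at the dimmer probeset, against SDs of 0.29 and 0.64. For Grin2b it was 0.22 and 0.53 in the same order, against SDs of 0.46 and 0.58, and for Grin2c 0.24 against 0.24. No neighbouring groups in any order differed by more than this SD pooled over the 4 groups, the widest step between neighbours being that of the dimmer Grin2b probeset, at 5.51 in AU-NS and 5.03 in AI-S rats, a step larger than the SD of 0.31 within AI-S. Spread over all 31 arrays was widest at the dim probesets, the dimmer Grin2a probeset varying more than 98.5% of all probesets and the brighter and dimmer Grin2b probesets more than 95.6% and 98.4%.

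The subunit probesets were each correlated with the RNA control difference, and the correlations were not tested against each other. Over the 31 arrays, the dimmer Grin2a probeset was lower where the beta-actin and Gapdh control difference was larger (r = -0.63, Spearman rank coefficient = -0.54, permutation test, adjusted p = 0.00224 over 7 probesets). Within phenotypes r was -0.37 in AU and -0.77 in AI rats, without a test, and it was -0.52 without the 2 arrays farthest from the median control difference. For the dimmer Grin2b probeset the pooled r was -0.48 and the Spearman rank coefficient = -0.56 (permutation test, adjusted p = 0.0275), with r = -0.44 without those arrays. Within phenotypes it was -0.19 in AU and -0.50 in AI rats, again without a test. Among all probesets the median r was -0.03 and 9.39% lay below -0.5. The brighter Grin1 probeset had r = -0.40 (permutation test, adjusted p = 0.0590), the brighter Grin2a and Grin2b probesets -0.28 each, Grin2c -0.09 and the dimmer Grin1 probeset 0.05, none of them past the threshold, although the rank correlation of the brighter Grin1 probeset passed (Spearman rank coefficient = -0.50, permutation test, adjusted p = 0.0108). For the brighter Grin2a probeset r was -0.66 within AU and -0.38 within AI rats, and for Grin2c it was 0.52 within AU and -0.21 within AI rats.

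**Figure D3:**
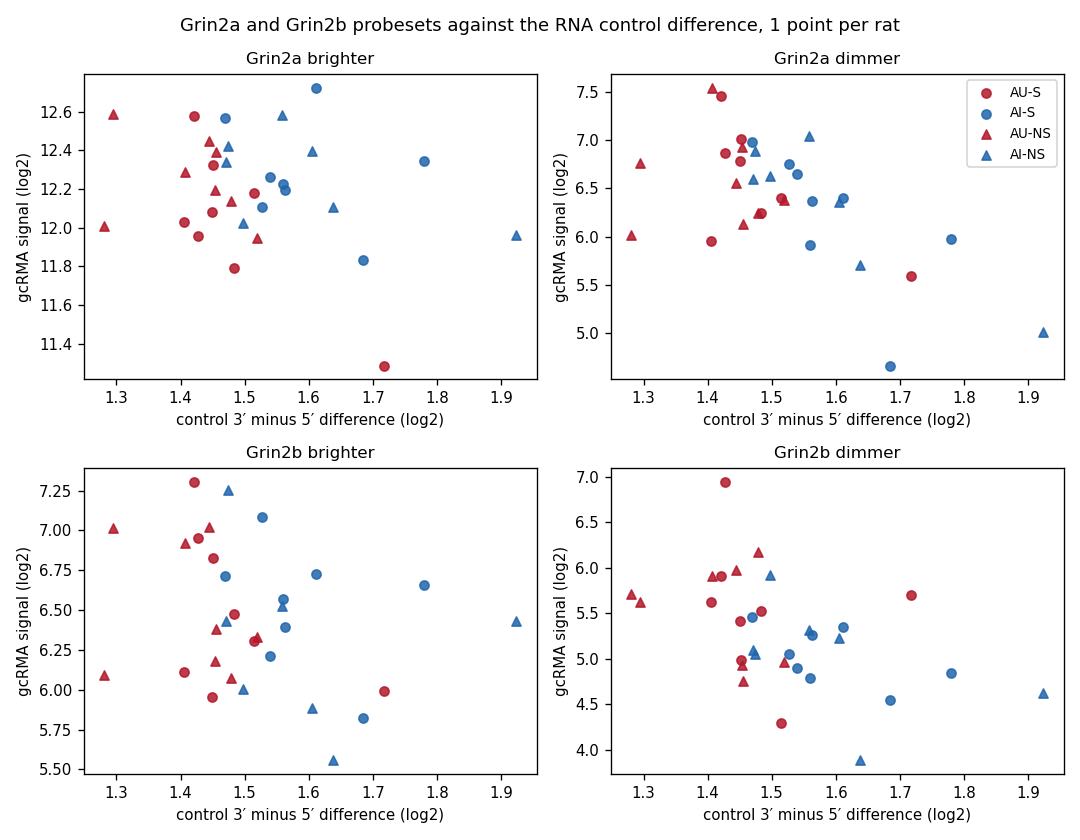
Log2 signal of the Grin2a and Grin2b probesets (vertical axis) against the beta-actin and Gapdh control difference, 3′ minus 5′ (horizontal axis, log2), 1 point per rat. Both right-hand panels slope down, with r = -0.63 for the dimmer Grin2a probeset and r = -0.48 for the dimmer Grin2b probeset, and most AI rats lie to the right of most AU rats.

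Fitting the control difference as a covariate turned the AU-act minus AI-act difference of the dimmer Grin2a probeset to -0.20 (SE 0.21). Under the same covariate the dimmer Grin2b probeset was 0.27 (SE 0.22), the brighter Grin2b probeset -0.08 and the brighter Grin2a probeset -0.32 (SE 0.11, adjusted p = 0.237 by limma). With the hexokinase difference as the covariate instead, the dimmer Grin2a probeset was -0.35 (SE 0.24), the dimmer Grin2b probeset 0.05 (SE 0.23) and the brighter Grin2a probeset -0.22 (SE 0.13). Grin1 and Grin2c stayed positive under both. Of all probesets, 893 were called without a covariate, 1 with the Gapdh and beta-actin covariate and 0 with hexokinase. Dentate granule and CA1 scores as covariates left the dimmer Grin2b probeset at 0.46 and the dimmer Grin2a probeset at 0.29 in AU-act minus AI-act. In AU-S minus AI-S alone, the same scores took the dimmer Grin2b probeset from 0.52 to 0.22 (SE 0.32). All probesets called there went from 67 to 0. In AU-NS minus AI-NS this Grin2b probeset was at 0.49 with and without the scores. Because phenotype and control difference overlapped strongly, their parts in these values cannot be told apart.

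**Figure D4:**
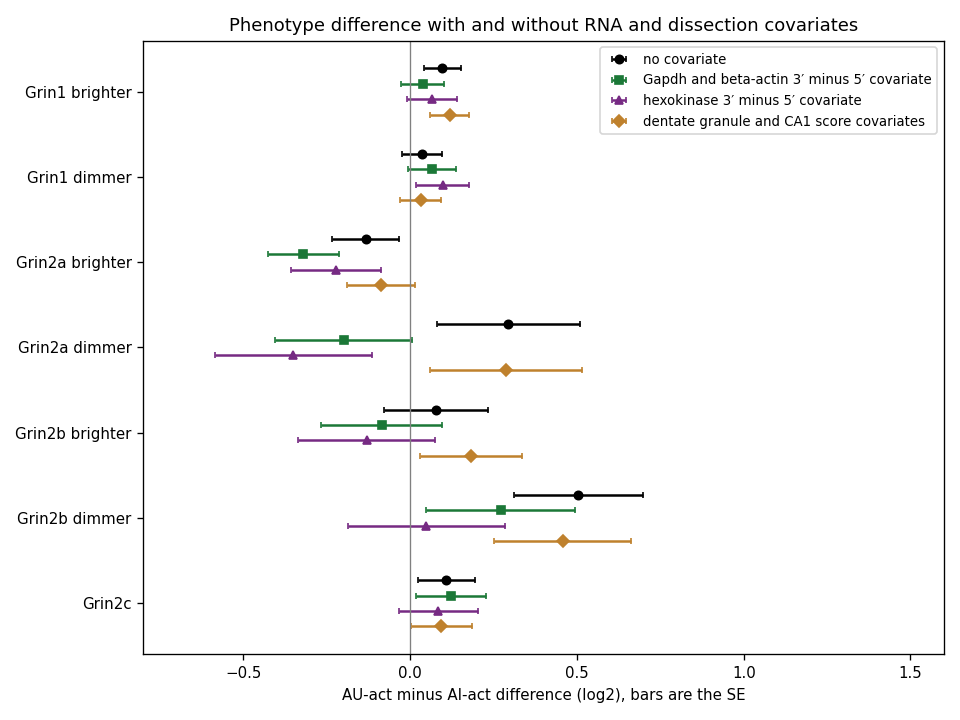
AU-act minus AI-act difference in log2 signal (bars are the SE) of each subunit probeset with no covariate, with either RNA control difference, and with dentate granule and CA1 scores as covariates. The dimmer Grin2a probeset lies at 0.29 without a covariate, -0.20 with the Gapdh and beta-actin control and -0.35 with hexokinase, while Grin1 and Grin2c move little.

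The brightest probesets of the subunits were then compared with each other across rats, in 6 pairs. Grin1 and Grin2b varied together (r = 0.63, Spearman rank coefficient = 0.57, permutation test, adjusted p = 0.000840), within AU (r = 0.60) and within AI rats (r = 0.68), and with r = 0.59 without the 2 arrays farthest from the median. Grin2a and Grin2b did so too (r = 0.51, Spearman rank coefficient = 0.54, permutation test, adjusted p = 0.00999), with r = 0.63 in AU, 0.46 in AI and 0.50 without those arrays. Correlation of Grin1 with Grin2a (r = 0.23), of Grin1 with Grin2c (r = 0.30) and of Grin2b with Grin2c (r = 0.10) did not pass. These values hold for 1 probeset of each gene, and no background over other gene pairs was set beside them. The probesets of 1 gene correlated at r = 0.55 for Grin2a (permutation test, adjusted p = 0.00633). For Grin2b r was 0.34 (permutation test, adjusted p = 0.0945) and for Grin1 0.14 (permutation test, adjusted p = 0.448). For Grin2a and Grin2c the overall r was -0.22, made up of -0.76 in AU rats and 0.33 in AI rats. Without AU-S replicate 5, which had the lowest Grin2a and the highest Grin2c signal, r in AU rats was -0.56, and the difference between the phenotypes was not tested.

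Probesets of 1 gene can be set against each other rat by rat, since a shared change in transcript number cancels where both respond equally. Whether they do was not tested. The brighter and dimmer Grin2a probesets had means of 12.20 and 6.41 and SDs of 0.29 and 0.63 over all arrays. A difference in their ratio may therefore still hold part of a shared change. The ratio itself depends on how well each probeset binds, and only its difference between rats is read. The log2 ratio of the dimmer over the brighter Grin2a probeset was -5.58 ± 0.42 in AU-act and -6.01 ± 0.56 in AI-act (SD, n = 16 and 15). This difference of 0.43 was seen in 14 of 16 AU rats relative to the AI mean (permutation test, p = 0.0217), but did not pass adjustment over the 9 such tests (adjusted p = 0.119). It was 0.58 after spatial (exact permutation test, adjusted p = 0.119) and 0.26 after non-spatial training (exact permutation test, adjusted p = 0.566), where leaving out single arrays gave 0.094 to 0.36. The ratio followed the RNA control difference at r = -0.59. For Grin2b the ratio differed by 0.43 (permutation test, adjusted p = 0.165) and for Grin1 by -0.06 (permutation test, adjusted p = 0.566). These ratios were examined after the probesets of Grin2a had been seen to point apart.

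The wider receptor complex was described with a list of 67 genes that hold, modify, move or feed the receptor, of which 56 were measured and represented by their brightest probeset. In AU-act against AI-act, 2 of the 56 were higher and 0 lower, while among all genes 2.05% were higher and 0.31% lower. The median difference of the list was 0.03, against 0.00 over all genes, and 66.1% of its differences were positive, against 51.7%. In the same comparison 6 of the 56 had an unadjusted p under 0.05, against 13.98% of all genes. The list was chosen with earlier results of these data known, so these shares are a description and not a test. By role, 1 of 13 scaffolds was higher, 1 of 15 anchor and traffic proteins, 0 of 19 kinases, phosphatases and enzymes, and 0 of 9 genes for co-agonist or glutamate supply. None of the 56 passed within a task, between tasks or in the interaction, where 0.0885% of all genes passed in AU-S against AI-S and 0% elsewhere. An unadjusted p under 0.05 was reached by 4 of the 56 in AU-S against AI-S (8.83% of all genes), 5 in AU-NS against AI-NS (7.03%), 5 in AU-S against AU-NS (8.07%), 3 in AI-S against AI-NS (4.42%) and 2 in the interaction (2.50%).

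Lin7c, a small PDZ protein that in mouse joins GluN2B to the Cask and Apba1 transport complex, rose most. Its log2 signal was dim, with a mean of 5.85 over all arrays. The lowest, median and highest values were 5.60, 6.06 and 7.75 in AU and 4.24, 5.60 and 6.40 in AI rats. The groups overlapped, and AU exceeded AI by 0.75 (SE 0.21, adjusted p = 0.0321 by limma). Dlg2, or PSD-93, a scaffold that binds the tails of GluN2 subunits, had values of 6.40, 7.01 and 8.15 in AU and 5.62, 6.51 and 7.47 in AI rats. Its groups overlapped as well, with AU higher by 0.60 (SE 0.18, adjusted p = 0.0434 by limma). Lin7c correlated with the RNA control difference at r = -0.72, with -0.51 within AU and -0.68 within AI rats. For Dlg2 r was -0.48, with -0.032 within AU and -0.43 within AI rats. With that difference as a covariate neither passed, at 0.27 for Lin7c (adjusted p = 0.645) and 0.41 for Dlg2 (adjusted p = 0.448). With the hexokinase covariate Lin7c was at 0.023 (adjusted p = 0.989) and Dlg2 at 0.11 (adjusted p = 0.933). Over the 31 fits that each left out 1 array, Lin7c differed by 0.65 to 0.82 and Dlg2 by 0.53 to 0.67. The call of Lin7c was lost without any of 7 arrays (AU-NS 2 or 3, AI-S 3, 4 or 6, AI-NS 5 or 8). That of Dlg2 was lost without any of 19 (AU-S 3, 4, 6 or 8, AU-NS 1, 2, 3, 4 or 7, AI-S 2, 3, 4, 5, 6 or 8, AI-NS 1, 5, 7 or 8).

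Genes of the list that did not pass included Akap5, which anchors protein kinase A and calcineurin near the receptor, at 0.30 (adjusted p = 0.194 by limma). Dlgap2, of the family that links Dlg scaffolds to Shank proteins, was at 0.22 (adjusted p = 0.507), and Slc1a2, the main astrocytic glutamate transporter, at 0.15 (adjusted p = 0.349). On the other side stood Dlgap1 at -0.16 (adjusted p = 0.206), Actn1, an actin-crosslinking alpha-actinin, at -0.16 (adjusted p = 0.0596) and Camk2d, a calcium-calmodulin kinase II subunit, at -0.15 (adjusted p = 0.385). Actn1 alone among these was near the threshold. With the Gapdh and beta-actin covariate Actn1 was at -0.15 (adjusted p = 0.345 by limma), and with hexokinase at -0.16 (adjusted p = 0.630). Over the 31 fits that each left out 1 array, it ran from -0.19 to -0.14 and passed in 4.

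**Figure D5:**
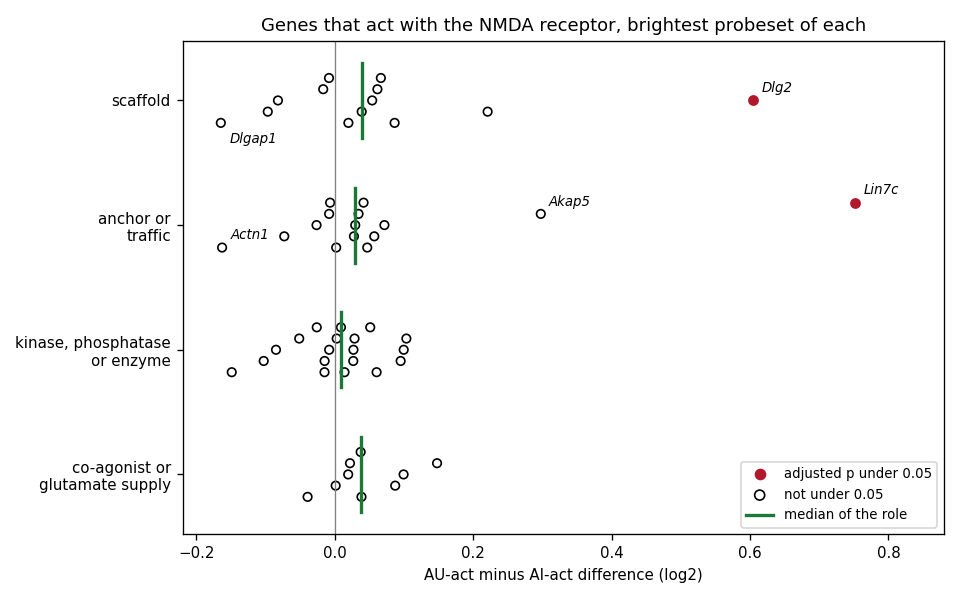
AU-act minus AI-act difference in log2 signal for 56 genes that act with the NMDA receptor, 1 point per gene at its brightest probeset, in 4 rows by role with the median of each. Filled points passed an adjusted p of 0.05, which only Lin7c at 0.75 and Dlg2 at 0.60 did.

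Finally, the genes whose signal followed each subunit most closely over the 31 arrays were listed, as a description in which phenotype, RNA quality and dissection are shared by all points. For Grin1 they were Cpne6, a calcium-dependent membrane-binding copine (r = 0.86), Aldoa, a glycolytic aldolase (r = 0.85), and Hapln4, a link protein of perineuronal nets (r = 0.85). Grin2a was nearest to Ccser2 (r = 0.89), to Aak1, a kinase of clathrin adaptors (r = 0.87), and to Ash1l, a histone methyltransferase (r = 0.87). The closest genes for Grin2b had lower values, namely Enc1, a neuronal actin-binding protein (r = 0.76), Arhgap44 (r = 0.72), and Slc2a13, a myo-inositol transporter (r = 0.71). Grin2c lay nearest to Aimp1, a cofactor of aminoacyl-tRNA synthetases (r = 0.81), Ilvbl (r = 0.80) and Rragc, a GTPase of the amino acid sensing pathway (r = 0.80). No gene appeared among the nearest of more than 1 subunit.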

How the data were processed

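CA3 RNA from 31 aged rats was hybridised to 1 array per rat, so replicates are separate animals. The deposited values are log2 signals that the authors made with gcRMA (background correction, quantile normalisation, probeset summary) in Bioconductor, whose version is not given in the sources used here, and no genome build was named. The table's smallest probeset mean was 5.00, so the authors' low intensity limit of 4, applied here to the mean, removed 0 probesets. The paper does not say whether its limit was on the mean. Arrays carry no read depth, and their number limits the precision. Groups came from the sample labels. Probesets were named through the platform annotation, with symbols updated by gene identifier. Differences were fitted with limma 3.58.1 in R 4.3.3, two-sided, with Benjamini-Hochberg adjustment over 16204 probesets, at thresholds of 0.05 with tasks pooled and 0.1 otherwise. SAM with 100 permutations was an alternative, as were other limits, centring, quantile normalisation, array weights, covariates and leaving out each array. The fit and SAM were tested on simulated data. Permutation tests used 100000 resamples, or were exact within tasks. Named were all subunit probesets, the 3 nearest genes of each subunit, and listed receptor genes that passed or were the 3 largest on either side. Members and lists were chosen with earlier results of these data known.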

Additional observations from a re-analysis of the deposited data

Results flagged for a closer look

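Of 28 tests of a subunit probeset within a group for a rat far from the others, 1 pointed to such a rat, and chance alone would give about 1 in 20. In AI-S rats, replicate 6 had a log2 signal of 4.66 for the dimmer Grin2a probeset, lower than the nearest AI-S rat at 5.91, a gap of 0.539 of the group's range. The control 3′ minus 5′ difference of this array was 1.68. Without it the AU-S minus AI-S difference of this probeset was 0.11, against 0.33 with it, and the AU-act minus AI-act difference was 0.18, against 0.29.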

How the results depend on the processing

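No subunit probeset passed under any alternative with all arrays, and 488 of 520 values kept their direction and their side of the threshold, as did 783 of 868 with 1 array left out. The exception was the dimmer Grin2b probeset without AU-S replicate 7, which took the number of subunit probesets called in AU-act minus AI-act to 1 (range over single arrays 0 to 1). Dim signal limits both Grin2b probesets, and a limit of 6 on the mean or of 4 on every array removed 1 of them. Counts over all probesets in AU-act minus AI-act were 893 in the reported fit, 1287 with array weights, 1621 by SAM, 591 with the replicate block, 1 with the Gapdh and beta-actin covariate and 0 with hexokinase. For AU-S minus AI-S they were 67, against 9 with median centring, 12 with quantile normalisation, 551 with array weights, 564 by SAM, 3 with the replicate block, 1 with the Gapdh and beta-actin covariate and 0 with hexokinase or with dissection scores. For AU-NS minus AI-NS they were 0, against 40 with array weights, 163 with all 4 groups in the fit and 484 by SAM. Receptor list genes called numbered 2, against 0 with either RNA covariate and 0 to 3 over single arrays. Other alternatives were not run for the list, and Lin7c, with a mean of 5.85, lies below the limit of 6. The causes of these changes in counts were not tested.

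Equal replicate numbers gave no sign on average of pairing the rats. Deviations of the 45 same-number pairs correlated at a mean r of -0.083 (-0.47 to 0.31), against 0.012 for 315 others (-0.52 to 0.51). The labels do not identify the runs, so whether numbers share a run could not be tested. With the replicate number as a block, the dimmer Grin2b probeset differed by 0.51 in AU-act minus AI-act (adjusted p = 0.159), the brighter Grin2a probeset by 0.024 in AU-NS minus AI-NS, and the interaction of the brighter Grin1 probeset was -0.0056. The block changed no call among subunits.

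Signs of values that never passed turned as follows (log2). With the Gapdh and beta-actin covariate, the dimmer Grin2a probeset was -0.20 in AU-act minus AI-act, -0.15 in AU-S minus AI-S, -0.30 in AU-NS minus AI-NS and 0.12 in AU-S minus AU-NS, and the brighter Grin2b probeset -0.085 in AU-act minus AI-act and 0.11 in AU-S minus AU-NS. With hexokinase, the dimmer Grin2a probeset was -0.35, -0.47 and -0.30 in the 3 phenotype comparisons, the brighter Grin2b probeset -0.13 in AU-act minus AI-act, and the interaction of the dimmer Grin2b probeset -0.0073. Array weights gave the dimmer Grin1 probeset -0.011 in AU-act minus AI-act and -0.046 in AU-S minus AI-S, the brighter Grin2a probeset 0.012 in AU-NS minus AI-NS, the dimmer Grin2b probeset -0.20 in AU-S minus AU-NS and -0.059 in AI-S minus AI-NS, and interactions of -0.049 for the brighter Grin1 probeset and -0.13 for the dimmer Grin2b probeset. Quantile normalisation gave the dimmer Grin2b probeset -0.061 in AI-S minus AI-NS. Dentate granule and CA1 scores gave the brighter Grin2b probeset 0.20 in AU-S minus AI-S, 0.17 in AU-S minus AU-NS, -0.067 in AI-S minus AI-NS and an interaction of 0.11. They gave the dimmer Grin1 probeset -0.0068 and Grin2c 0.013 in AU-NS minus AI-NS, the dimmer Grin2a probeset 0.11 in AU-S minus AU-NS, the brighter Grin2a probeset -0.025 in AI-S minus AI-NS, and interactions of 0.022 for the dimmer Grin1 probeset, -0.00064 for the dimmer Grin2a probeset and -0.14 for the dimmer Grin2b probeset.

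With single arrays left out, ranges that crossed 0 in AU-S minus AI-S were -0.015 to 0.064 for the dimmer Grin1 probeset and -0.15 to 0.047 for the brighter Grin2b probeset. In AU-NS minus AI-NS they were -0.0040 to 0.082 for the dimmer Grin1 probeset, -0.061 to 0.043 for the brighter Grin2a probeset and -0.081 to 0.010 for Grin2c. In AU-S minus AU-NS they were -0.16 to 0.11 for the dimmer Grin2a probeset, -0.13 to 0.063 for the brighter Grin2b probeset and -0.16 to 0.22 for the dimmer Grin2b probeset. In AI-S minus AI-NS they were -0.33 to 0.11 for the dimmer Grin2a probeset, -0.042 to 0.086 for the brighter Grin2a probeset, -0.18 to 0.16 for the dimmer Grin2b probeset and -0.11 to 0.064 for Grin2c. Interactions ranged from -0.044 to 0.038 and from -0.060 to 0.035 for the brighter and the dimmer Grin1 probeset, from -0.15 to 0.30 for the dimmer Grin2a probeset and from -0.17 to 0.22 for the dimmer Grin2b probeset.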
